A study of Mus musculus with 18 samples.

Results

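The 7 genes described here are *Rn45s*, *Lars2*, *Malat1*, *Neat1*, *Rmrp*, *Rpph1* and *Terc*, chosen by name from a table of 18659 genes. They are the row of the 45S ribosomal precursor and a group of RNAs that are abundant or structured. *Lars2* went against that grouping, since it is annotated as a protein-coding gene and encodes the mitochondrial leucyl-tRNA synthetase. The RNA-seq came from E14 mouse embryonic stem cells (mESCs), an established male line, grown in serum with LIF. All libraries used here were depleted of ribosomal RNA (rRNA) before sequencing. Cells were treated for 24 h with siRNA, or left untreated, and the study asked how the transcriptome responds to loss of the cohesin subunit *Stag1*. In set 1 there was 1 library of a scrambled control siRNA (scr) and 3 libraries (1a, 1b and 1c) of the SmartPool against *Stag1* (SP). Set 2 consisted of scr, SP, 3p, 5p and SATS siRNAs and untreated cells, 1 library each. Set 3 had these 5 siRNAs again and a luciferase siRNA control, also 1 library each. The 3p and 5p siRNAs target the 3′ and the 5′ end of *Stag1*, and SATS is an enzymatically prepared pool against the leader of an upstream *Stag1* transcript. In all groups the knockdown (KD) was transient, and whether SP 1a, 1b and 1c came from separate cultures is not stated in the sources used here, so p-values that use them measure only the spread between these libraries.

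Ribosomes are built from an RNA that RNA polymerase I transcribes in the nucleolus as a long 45S precursor, which is then cut into the mature rRNAs of both ribosomal subunits. *Rmrp* is the RNA of RNase MRP, which makes a cut within that precursor. *Rpph1* is the RNA of the related enzyme RNase P, which trims the 5′ ends of tRNA precursors and also frees the 3′ ends of *Malat1* and *Neat1*. *Malat1* is a long RNA of nuclear speckles, *Neat1* is the scaffold of paraspeckles, and *Terc* carries the template that telomerase copies onto chromosome ends.

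The sequences of the catalytic and template RNAs are given because the results turn on the levels of *Rmrp* and *Rpph1*, RNAs of related enzymes, with *Terc* for comparison. They were read from the GENCODE vM21 transcripts of GRCm38, in the sense strand, written as DNA. Positions and lengths of genes are those of RefSeq on GRCm38.p6, whose models differ from GENCODE by some bases at the ends. *Rmrp* lies at chr4:43492785-43493059 and *Rpph1* at chr14:50807447-50807771, each as an unspliced RNA gene, and capitals mark the longest runs of letters that they share, 2 runs of 9 bases.
Rmrp: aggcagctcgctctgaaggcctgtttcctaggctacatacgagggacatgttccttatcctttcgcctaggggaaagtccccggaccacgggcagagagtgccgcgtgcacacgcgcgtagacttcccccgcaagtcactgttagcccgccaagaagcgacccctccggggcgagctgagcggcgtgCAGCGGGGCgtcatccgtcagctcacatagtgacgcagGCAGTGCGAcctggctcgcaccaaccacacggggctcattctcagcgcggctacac
Rpph1: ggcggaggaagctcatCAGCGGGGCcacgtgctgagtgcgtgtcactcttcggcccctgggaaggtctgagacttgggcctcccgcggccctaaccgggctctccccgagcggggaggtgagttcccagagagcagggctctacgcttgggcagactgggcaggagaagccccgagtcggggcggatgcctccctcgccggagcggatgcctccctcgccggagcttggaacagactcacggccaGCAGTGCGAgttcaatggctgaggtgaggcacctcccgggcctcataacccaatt
The *Rmrp* line is the whole transcript of 281 bases and the *Rpph1* line is bases 1 to 300 of 319. Apart from these 2 runs, no stretch of 9 letters was common to both.
*Terc* lies at chr3:96414437-96414833, and capitals in bases 1 to 150 of its 423-base transcript mark CTAACCC, the letters that pair with the telomere repeat.
Terc: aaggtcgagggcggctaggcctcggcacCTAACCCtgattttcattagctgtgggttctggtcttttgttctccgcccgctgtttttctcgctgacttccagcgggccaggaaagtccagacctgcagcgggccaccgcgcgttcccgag
CTAACCC was found 1 time in *Terc*, from base 29, and in 1.19% of the 21818 GENCODE transcripts of 250 to 500 bases, searched in the sense strand.

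*Malat1* lies at chr19:5795690-5802672 and *Neat1* at chr19:5824708-5845480, on the same chromosome. Their 3′ ends are shown because RNase P, whose RNA is *Rpph1*, acts on both. Capitals mark AAAAAGCAAAA, the A-rich letters that precede the RNase P cut.
Malat1: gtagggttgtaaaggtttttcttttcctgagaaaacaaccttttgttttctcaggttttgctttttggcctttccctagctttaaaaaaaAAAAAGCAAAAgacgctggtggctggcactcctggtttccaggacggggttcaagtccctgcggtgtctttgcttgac
Neat1: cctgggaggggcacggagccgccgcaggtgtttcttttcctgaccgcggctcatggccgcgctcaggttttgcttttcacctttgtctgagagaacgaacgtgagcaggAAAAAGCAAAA
The *Malat1* window covers bases 6591 to 6758 of 6983, and its letters run on past the capitals into the tRNA-like piece that RNase P releases. In *Neat1* the capitals are the last bases of the annotated transcript of 20771 bases. AAAAAGCAAAA occurred 1 time in each RNA, and in 0.121% of the 120299 transcripts of 420 bases or more within their last 420 bases. *Lars2* lies at chr9:123366927-123462675. *Rn45s* had no entry in the annotation used, so that neither position nor sequence is given for it.

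Depth was 9023224 to 14040830 reads on genes per library in set 1, and 32137666 to 45660840 in sets 2 and 3. Values are counts divided by 1 size factor per library (normalized value), or the share of all reads on genes. *Stag1* itself was at 2016, 1876 and 2113 in the scr libraries of sets 1, 2 and 3, and at 365 to 660 in the SP, 3p and 5p libraries. In the SATS libraries it was at 947 and 1051, so every KD library was below the scr library of its set. All 8 embryonic stem cell markers were detected in every set. Their summed value was 36369 to 64140 in set 1 and 30117 to 39502 in sets 2 and 3. The summed value of 6 fibroblast markers was 2406 to 3460 in set 1 (1 of 6 at 0 in all 4 libraries), 8544 to 14807 in set 2 and 2487 to 3829 in set 3. Its part in the differences between sets was not tested. In bulk RNA, fewer cells of a type and less RNA per cell cannot be told apart.

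Reads on the 7 RNAs made up 73.4% to 83.4% of a library in set 1, but 15.9% to 24.6% of a library in sets 2 and 3. Nearly all of it was *Rn45s*, the ribosomal precursor. Its share was 76.8% in scr and 74.5%, 69.2% and 79.1% in SP 1a, 1b and 1c of set 1. In set 2 it was 16.4% in scr, 20.3% in SP, 16.4% in 3p, 18.6% in 5p, 14.7% in SATS and 19.2% in untreated cells. In set 3 it was 21.9% in scr, 19.3% in SP, 20.6% in 3p, 23.9% in 5p, 23.5% in SATS and 17.8% in luciferase. All 4 libraries of set 1 were above the other 12, with a wide gap between them. The mean share was 74.9% ± 4.24 (SD, n = 4) in set 1 and 19.4% ± 2.86 (SD, n = 12) in sets 2 and 3, a difference of 55.6 percentage points (exact permutation test over libraries, two-sided, p = 0.000549, the smallest the test can give). As a normalized value the mean of set 1 was 15.1-fold that of sets 2 and 3. The libraries had been depleted of rRNA, and the *Rn45s* row does not separate spacers of the precursor from mature rRNA, so that the share holds whatever rRNA the depletion left.

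**Figure D1:**
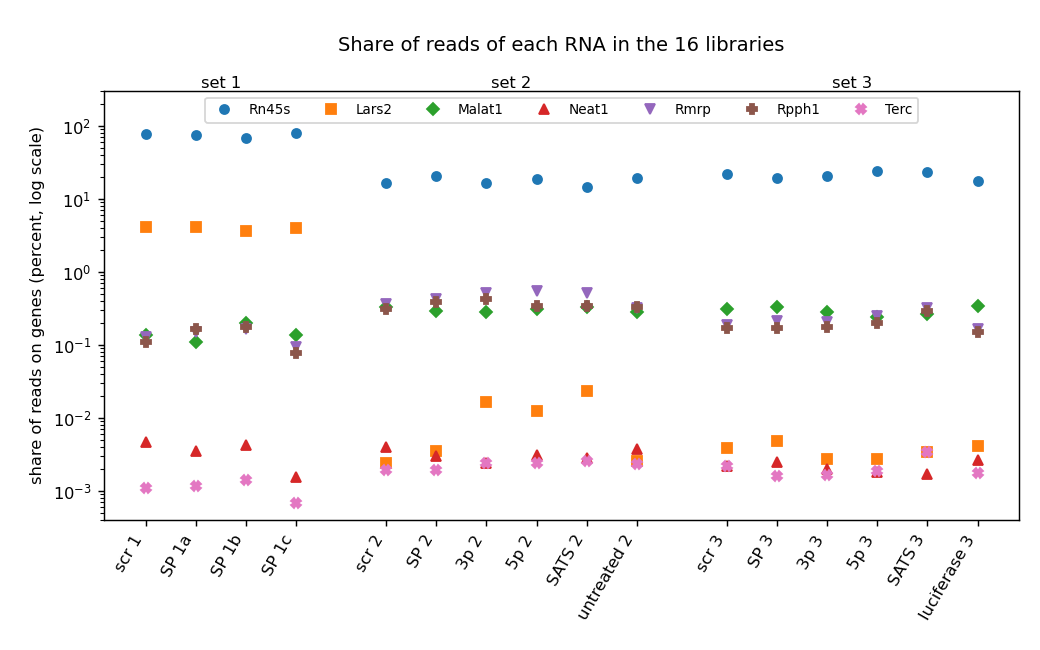
Share of reads on genes (percent, log scale) of the 7 RNAs in each of the 16 libraries, grouped by set; each point is 1 library. *Rn45s* and *Lars2* sat higher in set 1 than in any library of sets 2 and 3, and *Lars2* was raised in the 3p, 5p and SATS libraries of set 2.

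*Lars2* showed the widest range of the 7. Its values are those of the *Lars2* row, and whether the reads on it come from the synthetase mRNA was not tested. In set 1 its share was 4.14% in scr and 4.10%, 3.68% and 3.93% in SP 1a, 1b and 1c. In sets 2 and 3 its median share was 0.00374%, and the highest was 0.0237%. The mean was 3.96% ± 0.205 (SD, n = 4) in set 1 and 0.00692% ± 0.00694 (SD, n = 12) in sets 2 and 3, a 572-fold ratio (exact permutation test, two-sided, p = 0.000549, the smallest the test can give). As a normalized value *Lars2* was at 1663910 to 2859180 in set 1. In set 2 it was at 357 in scr, 563 in SP, 2513 in 3p, 1914 in 5p, 3559 in SATS and 395 in untreated cells. In set 3 it was at 622 in scr, 728 in SP, 418 in 3p, 427 in 5p, 564 in SATS and 607 in luciferase. The 3p, 5p and SATS libraries of set 2 were therefore above every other library of sets 2 and 3, and in set 3 the same siRNAs were all below scr. The *Rn45s* share of those 3 libraries, 14.7% to 18.6%, overlapped that of the other 3 of set 2, 16.4% to 20.3%.

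Within set 1 the reads of *Rn45s* and *Lars2* kept a nearly constant ratio, 18.2 to 20.1 reads of *Rn45s* for each of *Lars2*. In sets 2 and 3 that ratio ran from 619 to 8864. Of 16 other mitochondrial tRNA synthetase genes, the family of *Lars2*, 0 were called higher or lower in set 1 against sets 2 and 3 (limma, adjusted p under 0.05), and their median log2 fold change was 0.12 beside −0.05 for all genes tested. Of all 16346 genes tested, 3046 were called in that contrast. With reads scaled to the library total all 16 were lower in set 1 (median −1.83, beside −1.92 for all genes). On that scale 14448 of all 16578 genes tested were lower. Between sets 2 and 3, 2 were higher and 8 lower in set 2, beside 27.4% and 24.2% of all genes.

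**Figure D2:**
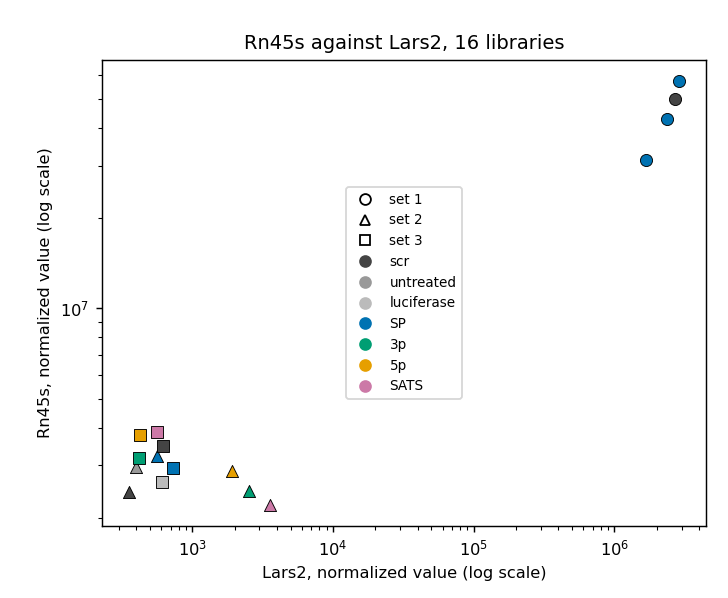
Normalized values of *Rn45s* (vertical, log scale) and *Lars2* (horizontal, log scale) in the 16 libraries, with the symbol for the set and the colour for the treatment. The 4 libraries of set 1 lie at the upper right, and the 3p, 5p and SATS libraries of set 2 lie to the right of the others, at *Rn45s* values like those of their set.

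The contrast of set 1 with sets 2 and 3 was fitted with limma on log2(normalized value + 1) over the scr and SP libraries, 4 against 4, with treatment as a term. SP 1a, 1b and 1c entered as separate libraries, so that the p-values cover the spread between libraries and not between sets. Set 1 also differed from the others in depth, so that set, depth and preparation cannot be told apart. Of the 7 RNAs, 5 were called higher in set 1, where 7.84% of all genes tested were called higher. The 7 were chosen with earlier results of these data known, so that this count is a description and no test of them as a group. *Lars2* differed by a log2 fold change of 12.02 ± 0.24 (SE, adjusted p = 1.0e-08), *Rn45s* by 3.90 ± 0.53 (adjusted p = 0.0046) and *Neat1* by 2.22 ± 0.26 (adjusted p = 0.0033). *Terc* differed by 1.12 ± 0.15 (adjusted p = 0.0046) and *Malat1* by 0.82 ± 0.15 (adjusted p = 0.0095). *Rpph1* (0.95 ± 0.29, adjusted p = 0.052) and *Rmrp* (0.82 ± 0.25, adjusted p = 0.053) did not pass. They passed by DESeq2 (adjusted p = 0.024 and 0.031) and with reads scaled to the total outside *Rn45s* and *Lars2* (adjusted p = 0.047 for both), but not by edgeR (adjusted p = 0.073 and 0.077). Ordered from the highest log2 fold change down, *Lars2* stood at place 2 of 16346 genes, *Rn45s* at 4, *Neat1* at 66, *Terc* at 776, *Rpph1* at 1109, *Rmrp* at 1450 and *Malat1* at 1454. *Rn45s*, *Lars2*, *Malat1* and *Neat1* were higher in all 4 libraries of set 1 than in all 12 others, as were 7.28% of all genes. An interaction term in limma gave the difference between sets in SP minus that in scr. It ran from −0.80 (*Neat1*) to −0.03 (*Terc*) on the log2 scale, with SEs of 0.33 to 1.23. With 1 scr library in set 1, this fit cannot decide whether the difference between sets itself differed between SP and scr.

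The direction for the less abundant RNAs depended on the scale. On the scale of RPM, in which all reads of a library are scaled to 1 fixed total, the median of all genes shifted by −1.92 on the log2 scale in set 1, where *Rn45s* took most of the reads. On that scale *Malat1* (−1.14), *Rmrp* (−1.14), *Rpph1* (−1.01) and *Terc* (−0.83) were lower in set 1 and passed the test (limma, adjusted p = 0.0026, 0.0061, 0.019 and 0.0053), while *Neat1* differed by 0.27 (adjusted p = 0.40). Relative to the median gene, they were again higher, by 0.78 for *Malat1* and *Rmrp*, 0.91 for *Rpph1*, 1.09 for *Terc* and 2.19 for *Neat1*. *Lars2* was higher on either scale (10.07 in RPM), and *Rn45s* at 1.95 ± 2.41 (SE) did not pass there in limma (adjusted p = 0.45). That SE, moderated over all genes, was far above the spread of *Rn45s* itself. Its log2 share had an SD of 0.083 in set 1 (n = 4) and 0.215 in sets 2 and 3 (n = 12). The mean log2 shares differed by 1.964 over all 16 libraries (exact permutation test over libraries, two-sided, p = 0.00055, the smallest the test can give). Over the scr and SP libraries that limma used, 4 against 4, the mean shares differed by 55.5 percentage points (exact permutation test, two-sided, p = 0.029). With no filter on low values *Rn45s* kept its log2 fold change of 3.90 but did not pass in limma (adjusted p = 0.44).

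The set 1 calls leaned on the scr library of that set. Without it 3 of the 7 were called, and *Terc* (adjusted p = 0.060) and *Malat1* (adjusted p = 0.086) no longer passed, while 103 genes in all were called in place of 3046. All 7 were called without SP 1c, and likewise without SP of set 2.

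*Neat1* was at 3013 in scr and at 2012, 1917 and 1144 in SP 1a, 1b and 1c of set 1. In set 2 it was at 594 in scr, 481 in SP, 366 in 3p, 470 in 5p, 423 in SATS and 586 in untreated cells. In set 3 it was at 344 in scr, 381 in SP, 305 in 3p, 291 in 5p, 278 in SATS and 388 in luciferase. In each set the scr library was above all *Stag1* siRNA libraries, except for SP in set 3, which was above scr. Each set had 1 scr library that all its siRNAs share, and the share of all genes with this pattern was not counted. *Malat1* varied least of all 7 within sets 2 and 3, from 38536 to 50471 over 12 libraries with a coefficient of variation of 8.48%, and from 62681 to 98888 in set 1. Reads of *Malat1* outnumbered those of *Neat1* by 29.7 to 86.5 in set 1 and by 74.4 to 155 in sets 2 and 3. Per length the gap was wider, with a median in sets 2 and 3 of 534 for *Malat1* and 1.51 for *Neat1* in RPKM. RPKM was taken here over the reads outside *Rn45s* and *Lars2*. The lengths were those of the whole genes, 6983 and 20773 bases, and counts per gene do not show where in a gene the reads lie.

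*Rmrp* and *Rpph1* had the highest levels per length of the 5 noncoding RNAs with a known length. In RPKM over the same reads, the median in sets 2 and 3 was 14696 for *Rmrp* (range 7356 to 24254) and 11580 for *Rpph1* (5552 to 15468), which overlapped, while *Malat1* was at 534, *Terc* at 66.955 (50.5 to 113) and *Neat1* at 1.51. The order was the same in set 1, at 22995, 18647, 1046, 133 and 7.69. As normalized values, *Rmrp* was at 82040 in scr and 87191, 73494 and 67206 in SP 1a, 1b and 1c of set 1. In set 2 it was at 53793 in scr, 66691 in SP, 77421 in 3p, 83240 in 5p, 76325 in SATS and 49075 in untreated cells. In set 3 it was at 30188 in scr, 32398 in SP, 31885 in 3p, 38993 in 5p, 52386 in SATS and 24617 in luciferase. Every *Stag1* siRNA library of sets 2 and 3 was thus above the scr library of its set, 8 of 8, while untreated and luciferase were below it, and 5.04% of all genes had all 8 above scr.

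*Rpph1* was at 70355 in scr and 95328, 78627 and 56366 in SP 1a, 1b and 1c of set 1. In set 2 it was at 46503 in scr, 60891 in SP, 62917 in 3p, 52056 in 5p, 51387 in SATS and 50563 in untreated cells. In set 3 it was at 26782 in scr, 25738 in SP, 26987 in 3p, 31891 in 5p, 47898 in SATS and 21959 in luciferase. The ratio of *Rmrp* to *Rpph1* reads stayed between 0.915 and 1.599 over all 16 libraries, although each of them ranged over 3.54-fold and 4.34-fold as a normalized value.

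*Terc* was at 703 in scr and 672, 630 and 499 in SP 1a, 1b and 1c of set 1. In set 2 it was at 290 in scr, 309 in SP, 357 in 3p, 373 in 5p, 387 in SATS and 363 in untreated cells. In set 3 it was at 352 in scr, 247 in SP, 254 in 3p, 298 in 5p, 566 in SATS and 260 in luciferase. The SATS library of set 3 stood above the other 5 of its set in *Rmrp*, *Rpph1* and *Terc* alike. Counting error was largest here, since SP 1c held 62 reads of *Terc*, a share of 0.000687% (95% Wilson interval 0.000536% to 0.000881%, for counting error only).

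**Figure D3:**
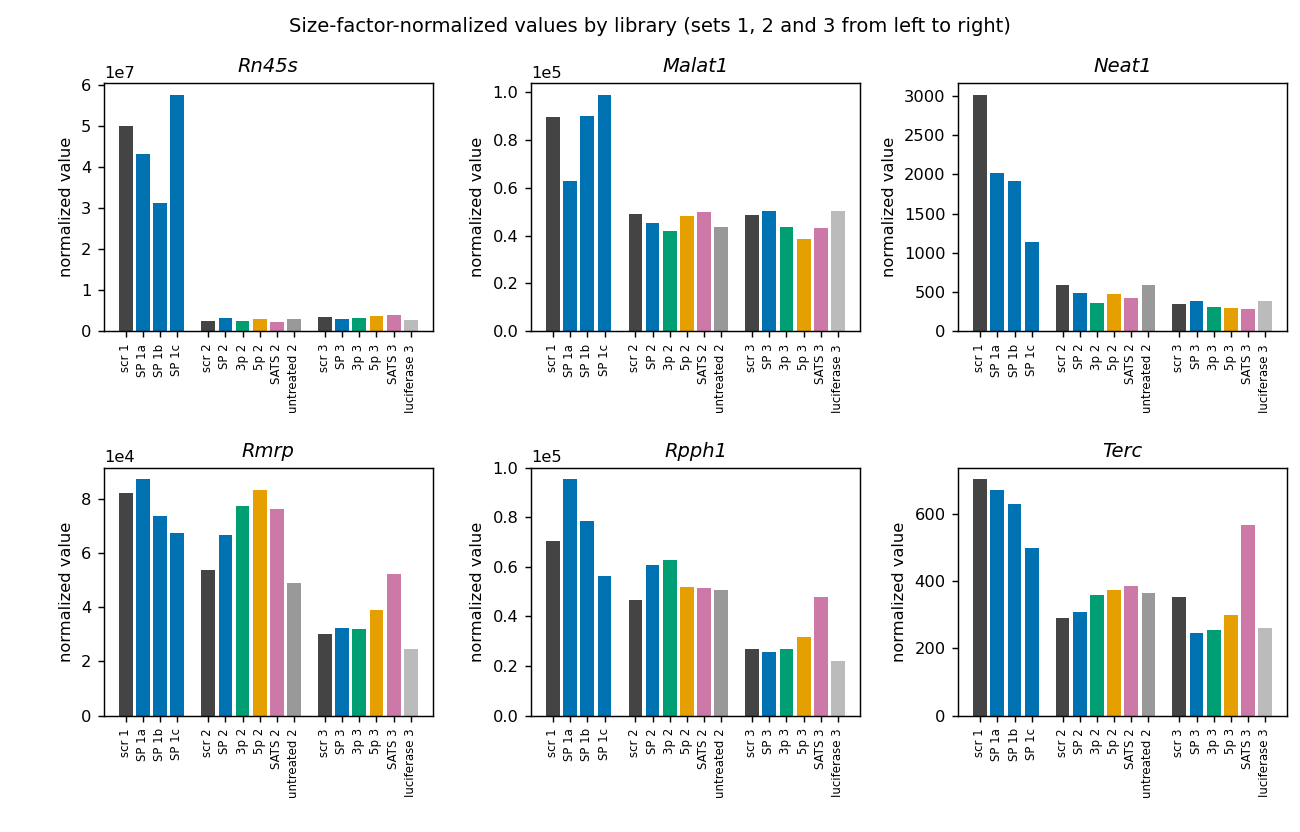
Normalized values of 6 of the RNAs in each library (vertical axes start at 0; each bar is 1 library; colours mark the treatment, with sets 1, 2 and 3 from left to right). For each siRNA *Rmrp* and *Rpph1* were lower in set 3 than in set 2, and SATS of set 3 was the highest of its set for *Rmrp*, *Rpph1* and *Terc*.

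Sets 2 and 3 had like depth and overlapping *Rn45s* shares (mean 17.6% in set 2 and 21.2% in set 3). They also differed from each other, and this comparison was added after the values were seen. It was fitted with limma over the 10 libraries of scr, SP, 3p, 5p and SATS with treatment as a term, and 51.6% of all genes passed, 27.4% higher and 24.2% lower in set 2. Of the 7 RNAs 4 passed, all higher in set 2 in the fit. By library, *Lars2* was higher in set 2 in 3p, 5p and SATS only. In scr (357 in set 2, 622 in set 3) and SP (563 and 728) it was lower in set 2. *Rmrp* differed by a log2 fold change of 0.96 ± 0.09 (SE, adjusted p = 1.0e-06), *Rpph1* by 0.81 ± 0.13 (adjusted p = 0.00011), *Neat1* by 0.54 ± 0.08 (adjusted p = 5.4e-05) and *Lars2* by 1.25 ± 0.41 (adjusted p = 0.021). *Malat1* (0.07 ± 0.07), *Terc* (0.06 ± 0.12) and *Rn45s* (−0.39 ± 0.20, adjusted p = 0.12) did not pass. *Rn45s* passed as lower in set 2 by edgeR (−0.41, adjusted p = 0.0051) and DESeq2 (−0.41, adjusted p = 0.016). The *Lars2* call was lost without the 3p, the 5p or the SATS library of either set (adjusted p from 0.057 to 0.092) and in DESeq2 (adjusted p = 0.11).

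**Figure D4:**
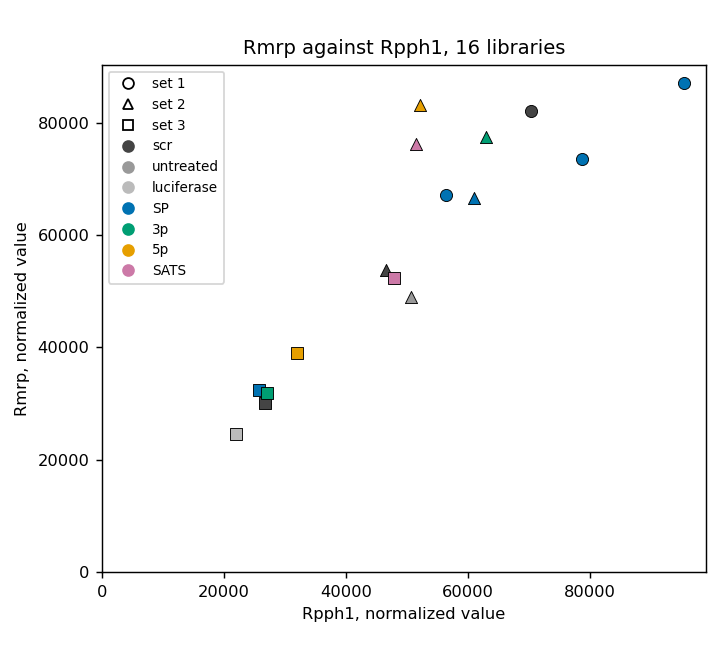
Normalized value of *Rmrp* (vertical) against that of *Rpph1* (horizontal) in the 16 libraries, with the symbol for the set and the colour for the treatment. The points rise together from the luciferase library of set 3 (24617 and 21959) to SP 1a of set 1 (87191 and 95328).

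Other structured noncoding RNAs did not all follow *Rmrp* and *Rpph1*. They were taken by symbol as small nuclear, small nucleolar and small Cajal body RNAs, Y, 7S, vault and 5S RNAs and RNase P-like sequences, 114 in the table. Between sets 2 and 3, 8 of 106 tested were higher in set 2 and 46 were lower (limma), beside 27.4% and 24.2% of all genes. Their median log2 fold change was −0.29 beside 0.01 for all genes. Those higher included the small Cajal body RNAs *Scarna10* (2.27), *Scarna13* (1.81), *Scarna9* (1.43) and *Scarna17* (1.31), which guide modification of spliceosomal RNAs, and *Snora78* (2.71), but *Scarna2* of the same class was lower (−0.29). Those lower included *Snord64* (−1.55) and *Snora33* (−1.18). Between set 1 and the others, 15 of 107 were higher and 1 was lower (*Scarna2*, −0.45) on the scale of normalized values. Of all genes 7.84% were higher in set 1 on that scale. Those higher included *Scarna10* (2.20), *Snora78* (2.12), *Snora44* (2.11), *Rnu12* (1.89) and *Snora74a* (1.78). In RPM 0 were higher and 65 lower, with a median of −1.24 beside −1.92 for all genes. Of all 16578 genes tested in RPM, 14448 were lower.

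Other long nuclear and regulatory RNAs, a mixed list, were higher in set 1 in 9 of 22 tested and lower in 2 (normalized values, limma). Of all genes 7.84% were called higher there. The 9 were *Kcnq1ot1* (2.04), *Meg3* (1.46), *Pvt1* (1.36), *Snhg3* (1.22), *Snhg6* (1.01), *Firre* (0.82), *Gas5* (0.60), *Dancr* (0.55) and *Snhg5* (0.51), and the 2 lower were *Airn* (−3.07) and *H19* (−1.995). *Airn*, *H19*, *Kcnq1ot1* and *Meg3*, on either side, are all RNAs of imprinted loci. *Kcnq1ot1* and *Airn* are antisense to other genes, and strand was stated to be used for the paired-end libraries only. The median of the list was 0.59 beside −0.05 for all genes, and −1.37 beside −1.92 in RPM. There 18 of 22 were lower and 0 higher, beside 14448 lower of all 16578 genes tested. Between sets 2 and 3, 14 of the 22 were lower in set 2, the other way from *Neat1*, and 2 were higher. Of all genes 24.2% were lower and 27.4% higher. The lower ones of the list included *Miat* (−0.95), *Ftx* (−0.90), *Rian* (−0.82) and *Meg3* (−0.77). The 2 higher were *Airn* (1.18) and *H19* (0.24).

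Genes for protein partners of these RNAs were described from the same fits. Of all genes 7.84% were called higher in set 1 there, and 51.6% differed between sets 2 and 3. None of the 11 RNase P and RNase MRP protein genes was called in set 1 against the others (0 of 11, limma on normalized values). Between sets 2 and 3, *Rpp25* (0.79) and *Rpp21* (0.34) were higher in set 2, and *Rpp40* (−0.39) and *Rpp14* (−0.38) were lower. Of 8 telomerase protein genes, *Gar1* (1.07) and *Nop10* (0.45), proteins of the H/ACA particle that binds *Terc*, were higher in set 1. Of 15 genes of the RNA polymerase I machinery, which transcribes the 45S precursor, *Taf1d* (0.60), *Taf1a* (0.59) and *Twistnb* (0.53) were higher in set 1 and 12 did not pass. Of 6 paraspeckle protein genes only *Sfpq* (0.46), which binds *Neat1*, was called higher in set 1. Between sets 2 and 3, 1 of 8 telomerase protein genes was higher in set 2 and 2 were lower. For the RNA polymerase I genes these counts were 3 and 6 of 15, and for the paraspeckle protein genes 2 and 1 of 6. Of all genes 27.4% were higher and 24.2% lower in set 2. In RPM every tested gene of these 4 lists was lower in set 1, with list medians from −2.05 to −1.68 beside −1.92 for all genes. On that scale 14448 of all 16578 genes tested were lower, so that this was not particular to the lists.

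The *Stag1* siRNAs were then compared with scr within the sets. The *Rn45s* share was 19.7% ± 3.19 (SD, n = 8) in SP, 3p, 5p and SATS of sets 2 and 3 and 18.8% ± 2.36 (SD, n = 4) in scr, untreated and luciferase. The difference of 0.872 percentage points was within the spread (exact permutation test within sets, two-sided, p = 0.56). In limma with the set as a replicate block, the log2 fold change of *Rn45s* was 0.08 in SP (95% interval −0.62 to 0.77), −0.07 in 3p (−0.76 to 0.63), 0.17 in 5p (−0.52 to 0.87) and 0.00 in SATS (−0.69 to 0.70). These intervals hold changes of up to 0.87 on the log2 scale.

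**Figure D5:**
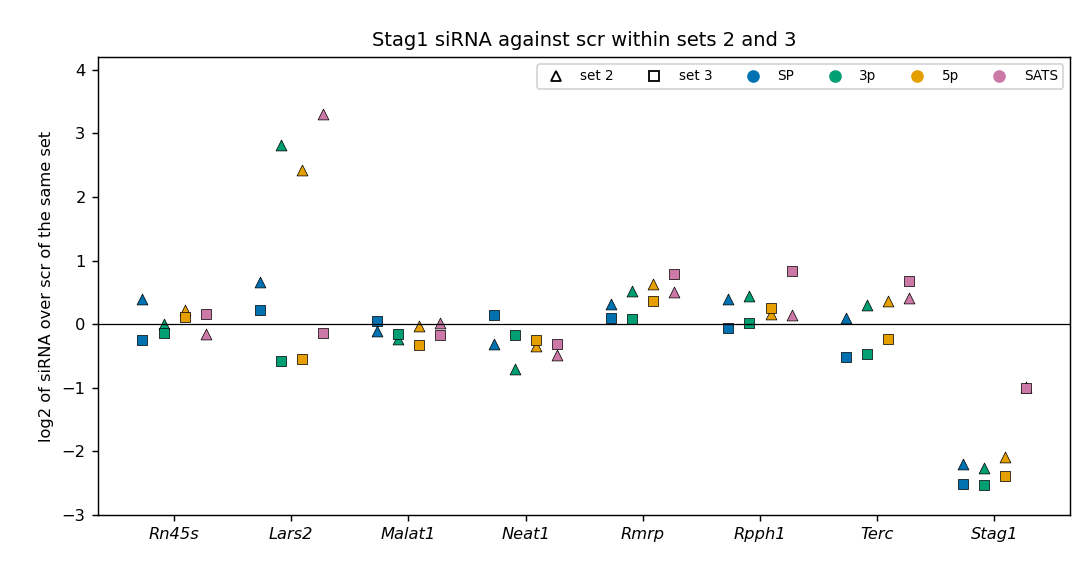
Log2 of each *Stag1* siRNA library over the scr library of its set (vertical), for the 7 RNAs and *Stag1* (horizontal), with triangles for set 2, squares for set 3 and colours for the siRNA. *Stag1* fell in every library, *Rmrp* was above 0 in 8 of 8, and *Lars2* was above 2 in the 3p, 5p and SATS libraries of set 2 only.

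Without the block no member was called in any comparison of siRNAs (0 of 7 each, limma), and 0 passed at an unadjusted p under 0.05. edgeR and DESeq2 also called 0 of 7 in each, with 0 at an unadjusted p under 0.05 except 1 by DESeq2 in SATS. The share of all genes called was 0% for SP against scr over 3 sets, 0.00606% for SP in sets 2 and 3, 0.00606% for 3p, 0.0121% for 5p, 0% for SATS and 0% for 5p against 3p. With the set as a replicate block these shares were 0%, 0.746%, 0.285%, 2.37%, 2.64% and 3.26%, and 0, 0, 1, 2, 5 and 0 of the 7 RNAs had an unadjusted p under 0.05. Among the 7 RNAs, only *Rmrp* in SATS then passed, with a log2 fold change of 0.65 ± 0.14 (SE, adjusted p = 0.033), and it passed in edgeR with the block too (0.67, adjusted p = 0.022). That call was lost without SATS of set 3 (0.39, adjusted p = 0.43), without scr of set 2 (adjusted p = 0.20) or without scr of set 3 (adjusted p = 0.25), each of which leaves 1 library in a group that is assumed to vary like the others.

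The other RNAs gave values short of the threshold in SATS with the block. *Rpph1* was at 0.49 ± 0.20 (adjusted p = 0.20), *Terc* at 0.55 ± 0.19 (adjusted p = 0.14), *Neat1* at −0.40 ± 0.12 (adjusted p = 0.092) and *Lars2* at 1.59 ± 0.65 (adjusted p = 0.20). *Rmrp* gave 0.50 ± 0.14 in 5p (adjusted p = 0.088) and 0.30 ± 0.14 in 3p (adjusted p = 0.48), and *Neat1* gave −0.29 ± 0.12 in 5p (adjusted p = 0.26) and −0.44 ± 0.12 in 3p (adjusted p = 0.17). *Lars2* gave 1.12 ± 0.65 in 3p (adjusted p = 0.58) and 0.94 ± 0.65 in 5p (adjusted p = 0.53), with the raised values of set 2 and the lower ones of set 3 averaged. The siRNA comparisons share their scr libraries, so that these values are not independent of each other. In 5p against 3p 0 of 7 passed with the block, and the 95% interval of the difference for *Rmrp* was −0.11 to 0.50.

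Of the gene lists, SATS with the block gave higher *Nop10* (0.49), 1 of 8 telomerase protein genes. *Scarna13* (0.68) and *Rprl3* (0.52), an RNase P-like sequence, were the 2 higher of 106 other structured RNAs. *Polr1b* (−0.30), a subunit of RNA polymerase I, was the 1 lower of 15 genes of that machinery. In that fit 2.64% of all genes passed, so that these calls describe single genes and not the lists. Also with the block, SP in sets 2 and 3 gave lower *Twistnb* (−0.43), 1 of 15 RNA polymerase I genes, beside 0.746% of all genes. In 5p against 3p with the block *Rpp40* (0.38), a protein of RNase P, was higher, 1 of 11 in its list, beside 3.26% of all genes. In 5p with the block the fibroblast markers *Col1a1* (−0.75) and *Vim* (−0.46) were lower, 2 of 5 tested, beside 2.37% of all genes. Without the block 0 genes of the lists passed in any siRNA comparison (limma).

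Over the 12 libraries of sets 2 and 3, with each set centred, *Rmrp* and *Rpph1* correlated at r = 0.81, *Rpph1* and *Terc* at 0.78 and *Rmrp* and *Terc* at 0.67, while *Neat1* and *Rmrp* gave −0.81. These are descriptions, with no test. Without SATS of set 3 they were 0.67, 0.25, 0.34 and −0.82, so that both values with *Terc* rested on that library. The genes most like each RNA among 11026 genes whose mean normalized value reached 50 were *Acot13* (0.96), *Scarna13* (0.96) and *Lyrm5* (0.95) for *Rmrp*, and *Bloc1s1* (0.98), *Hist1h4j* (0.96) and *Scarna2* (0.95) for *Rpph1*. For *Terc* they were *Cacybp* (0.93), *Mplkip* (0.92) and *Mrps18c* (0.92), which fell to 0.71, 0.69 and 0.66 without SATS of set 3. *Malat1* was closest to *Zfp809* (0.92), *Rfx7* (0.91) and *Fam49a* (0.91), and *Neat1* to *Nhlrc2* (0.92), *Ttll4* (0.91) and *Camk2g* (0.91). *Lars2* was closest to *Ppig* (0.92), *Nap1l1* (0.91) and *Hnrnpu* (0.91). *Rn45s* was closest to *Mppe1* (0.86), *Tcf3* (0.86) and *Igsf8* (0.84).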

How the data were processed

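Ribosome-depleted RNA-seq of 16 serum-grown mESC libraries was used, and the 2 samples grown in 2i were not analysed here. The deposited values are a normalized signal: the authors aligned reads to mm10 with HISAT2, counted them with featureCounts and divided the counts by DESeq2 (1.14.1) size factors over all libraries (tool versions from the submitters' processing notes). The strand setting is stated for paired-end libraries. A further table of set 1 in CPM was not used. Within each library the deposited signal was a whole multiple of its smallest non-zero value for 100% of values (tolerance 0.001 reads), which gave reads, depth and shares. All 16 columns were used, and 0 columns belonged to no sample. Read type (paired-end or single-end) is not stated per library.

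Groups and set numbers came from the labels. The fit used limma 3.58.1 with a mean-variance trend (R 4.3.3) on log2(signal + 1). Genes whose signal added up to less than 10 over the libraries fitted were dropped, and a call needed an adjusted p (Benjamini-Hochberg) under 0.05. On this scale fold changes understate the change of low genes. Alternatives were edgeR 4.0.16 and DESeq2 1.42.0 on the recovered reads, other pseudocounts, filters and scalings, a replicate block and leaving out libraries. Fits were tested on simulated data. Shares were compared by exact permutation over libraries. SP 1a, 1b and 1c differed from each other by more than sampling noise (chi-square per degree of freedom 12.4 to 33.3) and were averaged for SP against scr over 3 sets.

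The replicate block was used because the labels number the sets and same-numbered libraries deviated together from their group means (r = 0.77 to 0.82 over 3 pairs in SP against scr, 0.81 to 0.93 over 20 pairs in sets 2 and 3). In the latter, each group had 1 library per set, so that the pairs of set 3 mirror those of set 2 and add nothing to them. Named genes are the 7 RNAs, *Stag1*, the 3 genes most correlated with each RNA, and list genes that passed. The members and the gene lists were chosen with earlier results of these data known. Intervals and floors (3 reads) cover counting error only.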

Additional observations from a re-analysis of the deposited data

Results flagged for a closer look

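Over 7 RNAs and 3 sets, 21 groups of libraries were searched for a library far from the others of its set, and 1 was found, where chance flags about 1 in 20. The *Terc* share of reads in the SATS library of set 3 was 0.00343%, and the next highest of the 6 libraries of that set was 0.00222%, so that the gap took 0.671 of the whole range. The SATS library of set 2 held 0.00257%, against 0.00195% to 0.00243% in the other 5 of its set.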

How the results depend on the processing

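Of the single values given for an RNA in a comparison, 266 recomputed with another pseudocount, filter, scaling, tool, block or control kept direction and side of the threshold, 13 newly passed, 5 no longer passed and 7 turned direction. The 7 were, in RPM of all reads for set 1 against sets 2 and 3, *Malat1* (−1.14), *Rmrp* (−1.14), *Rpph1* (−1.01) and *Terc* (−0.83). In SATS against scr *Rn45s* turned to −0.027 in RPM of all reads, with or without the block, and to −0.026 in RPM of reads other than *Rn45s* and *Lars2*. With libraries left out, 205 kept direction and call and 26 turned direction. The number of the 7 RNAs called in set 1 against sets 2 and 3 then ran from 3 (without scr of set 1) to 7, in SP against scr from 0 to 1 (*Lars2*, with the block and without scr of set 1), and in SATS against scr from 0 to 3. The replicate block gave 1 called RNA in SATS against scr, in limma, in edgeR and in RPM of all reads, and changed no other call of the 7. These block fits in edgeR, in RPM and without libraries, and correlations without a library, were chosen after seeing the data. Log2 ranges without a library that crossed 0 were, for *Rn45s*, −0.18 to 0.33 in SP (−0.25 to 0.40 with the block), −0.32 to 0.19 in 3p (−0.14 to 0.0078 with the block), −0.083 to 0.43 in 5p, and −0.40 to 0.41 in SATS (−0.26 to 0.27 with the block, −0.069 without scr of set 2). For *Lars2* they were −0.17 to 2.41 in 3p (−0.16 to 2.40 with the block) and −0.14 to 2.02 in 5p (−0.34 to 2.22 with the block). *Rmrp* gave −0.34 to 0.94 in 3p and −0.048 to 1.05 in 5p, *Neat1* −0.68 to 0.10 in 5p, and *Terc* −0.046 to 0.21 between sets 2 and 3. The cause was not tested. Over all genes, 3046 were called in set 1 against sets 2 and 3 (1282 higher, 1764 lower) but 14463 in RPM of all reads (15 higher, 14448 lower), 103 without scr of set 1, 1536 to 4422 without another library, 1672 against set 2 alone and 707 against set 3 alone. The block raised these counts from 1 to 123 in SP of sets 2 and 3, 1 to 47 in 3p, 2 to 391 in 5p, 0 to 436 in SATS and 0 to 537 in 5p against 3p, and DESeq2 without the block called 21, 5, 68, 3 and 88. Depth limits *Terc* and *Neat1* most, at 62 and 142 reads in SP 1c.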

Other observations

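*Mir6236*, chosen after its values were seen, was the row most raised in set 1, at place 1 of 16346 genes with *Lars2* at place 2. It lies at chr9:110281287-110281409, and RefSeq (GRCm38.p6) gives a mature sequence, here with the seed (bases 2 to 8) in capitals.
Mir6236: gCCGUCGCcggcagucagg
As normalized values *Mir6236* was at 26050 in scr and 22249, 18775 and 31376 in SP 1a, 1b and 1c of set 1. In sets 2 and 3 it was at 0.881 to 9.17, from 2 to 26 reads, and the highest values were 9.17 in SATS and 5.40 in 3p of set 2, then 3.61 in SATS of set 3. *Lars2* was raised in the former 2 libraries and in 5p of set 2, where *Mir6236* was at 2.86, but not in SATS of set 3. The log2 fold change in set 1 was 12.97 ± 0.20 (SE, limma, adjusted p = 2.0e-09). The reads of *Lars2* outnumbered those of *Mir6236* by 88.6 to 106 in the 4 libraries of set 1 and by 156 to 669 in sets 2 and 3. The libraries hold fragments of total RNA, so that reads on this row need not be mature miRNA, and what the row holds was not tested.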
